A study of Rattus norvegicus with 14 samples.

Results

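The genes described here encode lysosomal enzymes and membrane proteins of the rat aorta. They were taken from a list of 36 genes by gene symbol, and 35 of them were represented among the 14217 genes that could be named on the array, by 48 probe sets in all. A probe set, the group of short probes that reads one transcript, was used where the platform annotation gave it a single symbol, and the one with the highest mean over the 14 arrays stood for its gene. Npc1 had no such probe set and was not analysed here. The rule that selects probe sets uses no difference between the groups. The genes and the other lists used below were, however, chosen with earlier results of these data known.

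The study profiled thoracic aortas of Sprague-Dawley rats with chronic renal failure induced by adenine (A-CRF, n = 8) and of control rats of the same strain (n = 6), with 1 array per sample. The labels give no age, sex, dose or duration for either group, name no treatment of the controls, and do not say whether each sample came from a separate animal, so the spread behind every p-value is that between samples and may be technical. Values are signals on a log2 scale whose base was inferred from their range, 4.82 to 12.64, and every difference below is A-CRF minus control. A gene is said to have risen or fallen where the adjusted p of limma, a linear model fitted to all 31042 probe sets with Benjamini-Hochberg adjustment, was under 0.05.

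Lysosomes are acidic organelles that break down proteins, glycans, lipids and nucleic acids taken up from outside or delivered by autophagy. Soluble hydrolases do the cutting, small cofactor proteins present lipids to them, a proton pump (the vacuolar ATPase) acidifies the lumen, and heavily glycosylated membrane proteins line and seal the organelle. Most soluble hydrolases are carried there by mannose 6-phosphate receptors, and the transcription factors Tfeb, Tfe3 and Mitf bind an E-box-type element in many lysosomal promoters. Macrophages are rich in lysosomes, and smooth muscle cells, the main cells of the aortic wall, contain them too.

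The arrays carried a clear smooth muscle signal, with all 8 smooth muscle markers well above the lowest values, and 7 of their 8 differences were negative, with a median of -0.25. Myh11 alone passed the threshold, lower in A-CRF by 0.29 log2 units (adjusted p = 0.043), a call held in 4 of 14 fits that left out 1 array and lost without the 3 arrays named next (adjusted p = 0.083). At an unadjusted p under 0.05 limma gave 3 lower and 0 higher, among them Tagln (-0.26, adjusted p = 0.059), named after its values were seen. All 8 A-CRF arrays of Tagln lay below every control, which held for 1 of the 8 markers. How many of all genes lay so was not counted. A-CRF 1, A-CRF 4 and Control 1 stood apart in the difference between the 3′ and 5′ control probe sets of GAPDH, at 1.58 to 1.90 against 0.37 to 0.55 on the other arrays, a sign of shorter labelled RNA, and calls of the lysosomal genes that change without them are given so. Of the 19 macrophage markers measured, 12 rose and none fell, with 16 higher and 0 lower at an unadjusted p under 0.05. Over all genes 1.93% rose and 1.06% fell, and at that unadjusted limit 9.74% were higher and 8.88% lower. Since RNA came from whole tissue, more cells of a type and more RNA per cell cannot be told apart.

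Enzymes and cofactors of the lysosomal lumen were among the genes that rose in A-CRF. None of the listed membrane proteins and proton pump subunits passed the threshold. Cd68, a lysosomal membrane protein outside the list, did rise, by 0.42 (adjusted p = 0.0093). Of the 35 genes, 7 rose and 0 fell: the cysteine proteases Ctss, Ctsh, Ctsb and Ctsl, the thioesterase Ppt1, and the soluble proteins Grn and Npc2. Over all named genes, 1.93% rose and 1.06% fell. The rises were small, between 1.19-fold and 1.57-fold. At an unadjusted p under 0.05 limma gave 17 higher and 3 lower genes of the 35, against 9.74% higher and 8.88% lower over all genes, and the exact rank-sum test gave 8 higher and 0 lower after adjustment, without Npc2 and with Ctsa and Hexa.

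Of the 35 differences 31 were positive, with a median of 0.14 log2 units against -0.0012 over all genes. For 8 of the genes, namely Ctsa, Ctsb, Ctsh, Ctsl, Ctss, Hexa, Ppt1 and Grn, every A-CRF array lay above every control array, which held for 1.46% of all genes. They are the same genes that the rank-sum test called. All 24 hydrolases and cofactors had a positive difference, with a median of 0.25 and 7 past the threshold. Among the 11 membrane proteins and pump subunits 7 differences were positive and 4 negative, with a median of 0.02 and 0 past the threshold in limma and in the rank-sum test. At an unadjusted p under 0.05 limma gave 1 higher and 3 lower of these 11, against 9.74% higher and 8.88% lower over all genes. The difference between the classes of genes was not tested.

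**Figure D1:**
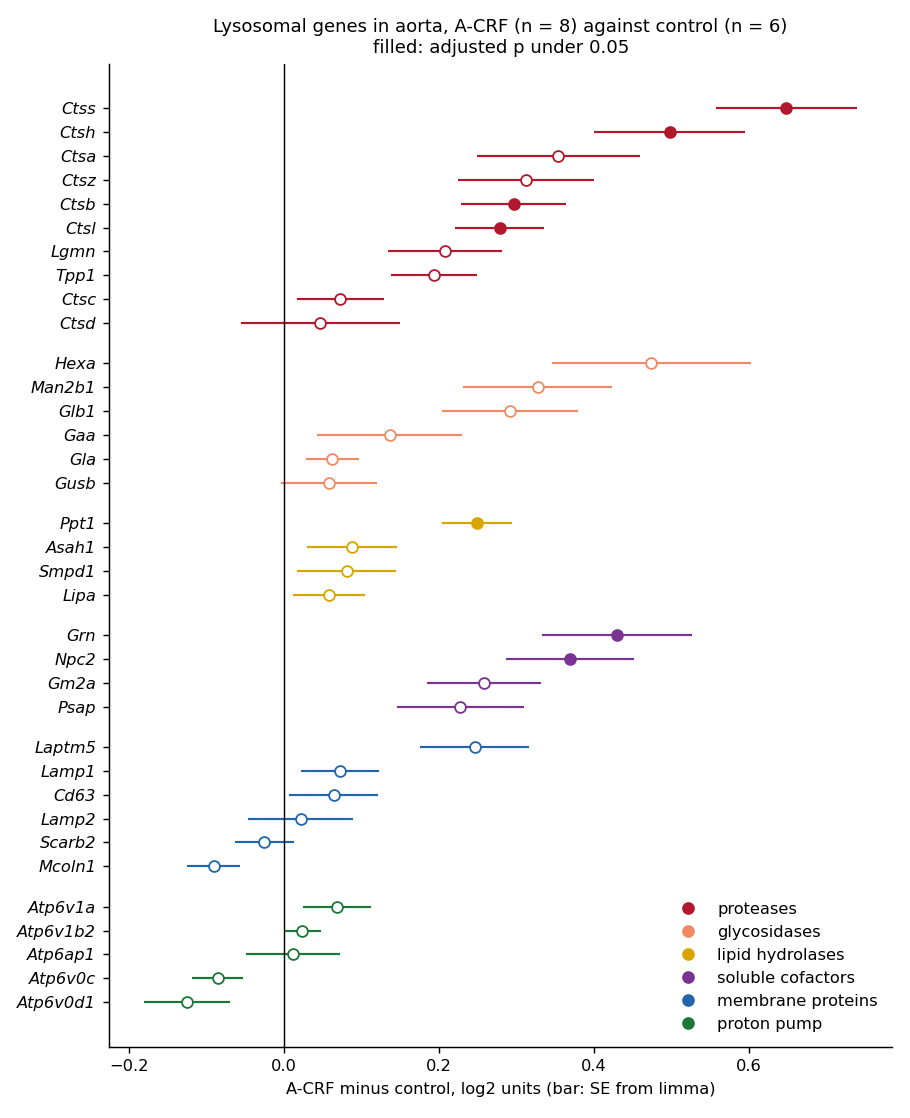
Difference between A-CRF (n = 8) and control (n = 6) in log2 units on the x axis for each of the 35 genes, grouped and coloured by role, with bars for the SE from limma and filled points for an adjusted p under 0.05. All 24 hydrolases and cofactors lie to the right of 0, up to 0.65 for Ctss, while the 11 membrane proteins and pump subunits lie between -0.13 and 0.25.

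The proteases were the largest class, with 10 genes, and 4 of them rose. Their median difference was 0.29 log2 units, all 10 differences were positive, and 8 had an unadjusted p under 0.05. Ctss encodes cathepsin S, a cysteine protease of antigen-presenting cells that also cuts elastin. Its log2 signal was 8.28 at the lowest, 8.54 at the median and 8.97 at the highest over the A-CRF arrays, against 7.73, 7.96 and 8.04 over the control arrays. The groups did not overlap, with A-CRF 1 the lowest and A-CRF 3 the highest of the A-CRF arrays. The rise was 0.65 ± 0.09 log2 units (SE, adjusted p = 0.0046), or 1.57-fold, and held in all 14 fits that left out 1 array, with an adjusted p of at most 0.014.

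Ctsh, cathepsin H, is an aminopeptidase of the same family. Its signal ran from 8.55 over a median of 8.76 to 9.20 in A-CRF and from 8.11 over 8.28 to 8.49 in control. Again no A-CRF array reached down to the controls, and A-CRF 3 was the highest. Ctsh rose by 0.50 ± 0.10 log2 units (SE, adjusted p = 0.020), or 1.41-fold, and passed in all 14 fits without 1 array, in the weakest of them with an adjusted p of 0.050. With the clock gene covariate the difference was 0.46 and the call was lost (adjusted p = 0.054).

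Ctsb encodes cathepsin B, an abundant endopeptidase of most cell types. In A-CRF its lowest, median and highest signals were 10.28, 10.36 and 10.68, and in control 10.03, 10.14 and 10.24. A-CRF 3 and A-CRF 4 lay together above the other A-CRF arrays, and the groups did not overlap. The rise of 0.30 ± 0.07 log2 units (SE, adjusted p = 0.038, 1.23-fold) was past the threshold in 7 of the 14 fits without 1 array. It was lost without A-CRF 3 or 5 and without Control 1, 2, 4, 5 or 6, with an adjusted p of up to 0.087, and without the 3 arrays of high GAPDH difference (0.27, adjusted p = 0.059). The clock gene and fat marker covariates (adjusted p = 0.097 and 0.081) and quantile normalization also ended it.

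Ctsl, cathepsin L, is the fourth of the proteases that rose. Its signal was 9.38, 9.51 and 9.64 at the lowest, median and highest in A-CRF and 8.98, 9.26 and 9.34 in control. The gap between the groups was narrow, and the low end of the controls was Control 1 alone. The difference was 0.28 ± 0.06 log2 units (SE, adjusted p = 0.026, 1.21-fold), past the threshold in 11 of 14 fits and lost without A-CRF 5, Control 2 or Control 3 (adjusted p of up to 0.054). A second probe set of Ctsl differed by only 0.0026 (adjusted p = 0.997), so the rise rests on 1 of its probe sets, and it was lost when the probe sets were averaged.

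The other proteases did not pass the threshold. Ctsa, the carboxypeptidase that protects β-galactosidase and neuraminidase in a complex, differed by 0.35 (adjusted p = 0.11), with a range of 9.07 to 9.77 in A-CRF entirely above the 8.95 to 9.01 of the controls. Ctsz, a carboxypeptidase, differed by 0.31 (adjusted p = 0.085), the asparaginyl endopeptidase Lgmn by 0.21 (adjusted p = 0.18) and the tripeptidyl peptidase Tpp1 by 0.19 (adjusted p = 0.090). Ctsc, which activates serine proteases of granules, and the aspartic protease Ctsd differed by 0.07 (adjusted p = 0.66) and 0.05 (adjusted p = 0.93). For Ctsd the medians of both groups were 7.97.

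**Figure D2:**
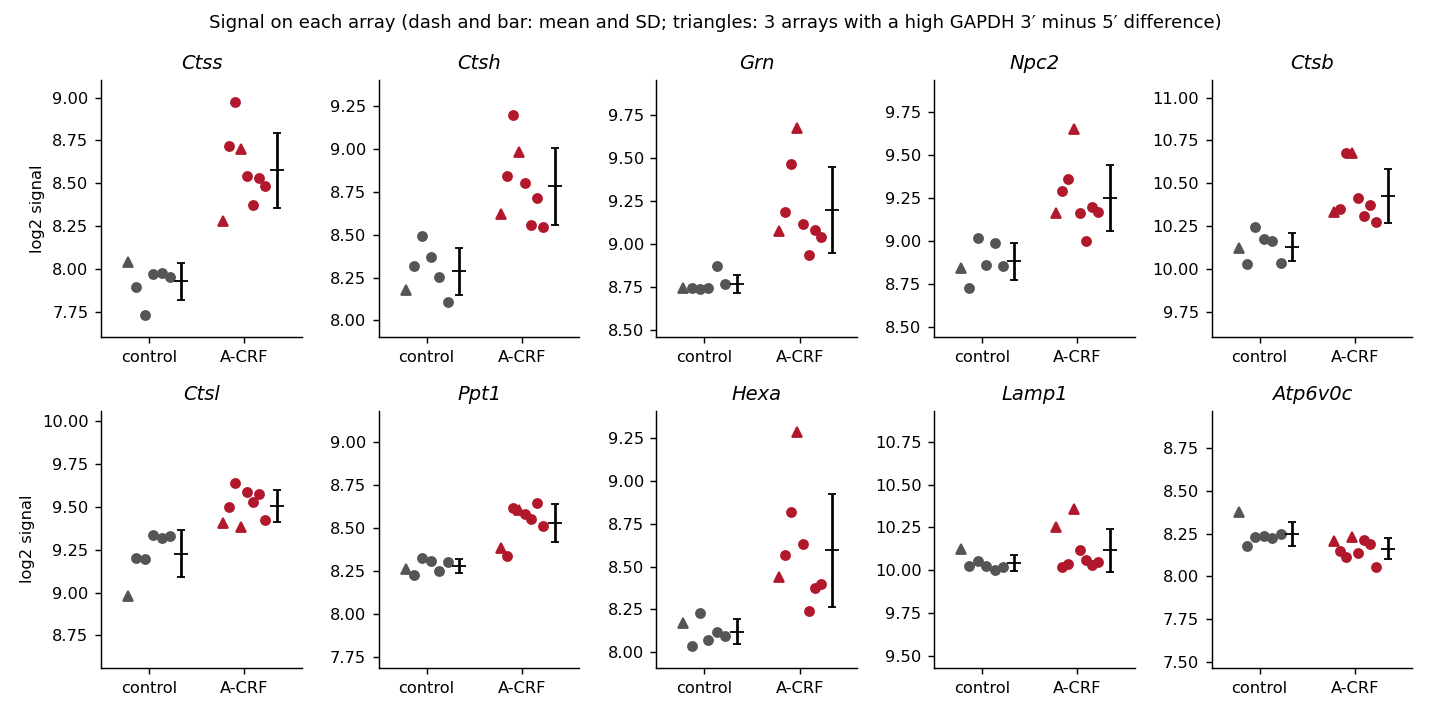
Log2 signal of 10 lysosomal genes on each array, with control (n = 6) in grey and A-CRF (n = 8) in red, a dash and bar for the mean and SD, and triangles for the 3 arrays with a high GAPDH 3′ minus 5′ difference. Every panel spans the same number of log2 units. The 8 A-CRF points of Ctss, Ctsh, Grn, Ctsb, Ctsl, Ppt1 and Hexa lie above all control points, 7 of 8 do so for Npc2, and the groups overlap for Lamp1 and Atp6v0c.

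None of the 6 glycosidases, which trim sugars from glycoproteins, glycolipids and glycogen, passed the threshold, although all 6 differences were positive and 3 of them had an unadjusted p under 0.05. Their median was 0.21 log2 units. Hexa, the α subunit of β-hexosaminidase, which degrades the ganglioside GM2, had the largest difference. Its signal was 8.24, 8.50 and 9.28 at the lowest, median and highest in A-CRF and 8.04, 8.11 and 8.23 in control. All A-CRF arrays lay above the controls, the lowest by little, while A-CRF 4 alone reached past 9. The difference of 0.47 ± 0.13 log2 units (SE, adjusted p = 0.075) missed the threshold. It passed with array weights (adjusted p = 0.036), the exact rank-sum test (adjusted p = 0.048) and the filter on dim probe sets (adjusted p just under 0.05), without A-CRF 4 (0.38, adjusted p = 0.029) and without the 3 arrays of high GAPDH difference (0.40, adjusted p = 0.040).

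Man2b1, the lysosomal α-mannosidase, differed by 0.33 (adjusted p = 0.100) and the β-galactosidase Glb1 by 0.29 (adjusted p = 0.11). A second and dimmer probe set of Man2b1, with a mean signal of 5.98 against 7.11, differed by -0.02. The α-glucosidase Gaa, which clears glycogen, differed by 0.14 (adjusted p = 0.59). The α-galactosidase Gla and the β-glucuronidase Gusb each differed by 0.06 (adjusted p = 0.46 and 0.79), and their groups overlapped.

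Among the 4 lipid hydrolases, Ppt1 rose and the others did not pass the threshold. Ppt1 removes palmitate from proteins during their breakdown. Its signal ran from 8.34 over a median of 8.57 to 8.64 in A-CRF and from 8.23 over 8.28 to 8.33 in control. Although A-CRF 2 lay just above the controls, the groups did not overlap. Ppt1 rose by 0.25 ± 0.05 log2 units (SE, adjusted p = 0.014, 1.19-fold) and passed in all 14 fits without 1 array, as of the 35 genes only Ctss and Ctsh did besides it. Asah1, the acid ceramidase, differed by 0.09 (adjusted p = 0.57), the acid sphingomyelinase Smpd1 by 0.08 (adjusted p = 0.67) and the acid lipase Lipa, which frees cholesterol from its esters, by 0.06 (adjusted p = 0.67).

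The 4 soluble cofactors had the highest median of the 6 classes, 0.31 log2 units, and each had an unadjusted p under 0.05. Grn encodes progranulin, a secreted and lysosomal glycoprotein whose fragments support lysosomal enzymes. Its signal was 8.94, 9.10 and 9.68 at the lowest, median and highest in A-CRF and 8.74, 8.75 and 8.87 in control. The controls lay within a narrow band apart from Control 5, and A-CRF 3 and A-CRF 4 stood above the other A-CRF arrays. The rise was 0.43 ± 0.10 log2 units (SE, adjusted p = 0.036, 1.35-fold). It passed in 5 of 14 fits and was lost without A-CRF 2, 3 or 5 and without any 1 of the 6 controls, with an adjusted p of up to 0.078, but held without the 3 arrays of high GAPDH difference (adjusted p = 0.032). The clock gene and fat marker covariates also ended the call (adjusted p = 0.090 and 0.073).

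Npc2 carries cholesterol from the lumen to the membrane protein Npc1. In A-CRF its lowest, median and highest signals were 9.002, 9.19 and 9.65, and in control 8.73, 8.86 and 9.02. All but A-CRF 6 lay above the highest control, and A-CRF 4 was the highest. Npc2 rose by 0.37 ± 0.08 log2 units (SE, adjusted p = 0.035, 1.29-fold), a call held in 6 of 14 fits and lost without A-CRF 2, 3 or 5 and without Control 1, 2, 4, 5 or 6 (adjusted p of up to 0.075). It was also lost by the rank-sum test (adjusted p = 0.064) and with the clock gene (adjusted p = 0.089) and fat marker (adjusted p = 0.064) covariates. Gm2a, the activator that lifts GM2 out of membranes for β-hexosaminidase, differed by 0.26 (adjusted p = 0.089), and Psap, the precursor of the saposins, by 0.23 (adjusted p = 0.18). Without the 3 arrays of high GAPDH difference Gm2a passed at an adjusted p of 0.048.

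Of the 6 membrane proteins measured none passed the threshold. Laptm5, a lysosomal membrane protein of blood-derived cells, differed most. Its signal was 6.31, 6.50 and 6.77 at the lowest, median and highest in A-CRF and 6.17, 6.32 and 6.36 in control, with all but A-CRF 6 above the highest control. The difference was 0.25 ± 0.07 log2 units (SE, adjusted p = 0.091), close to the 0.26 of its second probe set, and it passed without A-CRF 6 (adjusted p = 0.044). Lamp1 and Lamp2, the main glycoproteins of the lysosomal membrane, differed by 0.07 (adjusted p = 0.60) and 0.02 (adjusted p = 0.95). A second probe set of Lamp2 differed by 0.17 (adjusted p = 0.33). Cd63, a tetraspanin of late endosomes, differed by 0.06 (adjusted p = 0.73), Scarb2, the receptor that carries glucocerebrosidase, by -0.03 (adjusted p = 0.87), and the calcium channel Mcoln1 by -0.09 (adjusted p = 0.21). For Mcoln1, 7 of 8 A-CRF arrays lay below the lowest control.

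The 5 listed proton pump subunits did not pass either, and the median of their differences was 0.01. Atp6v0d1, a subunit of the membrane sector, had the largest difference of them. Its signal was 7.62, 7.74 and 7.97 at the lowest, median and highest in A-CRF and 7.79, 7.88 and 8.04 in control, so the groups overlapped although 5 A-CRF arrays lay below all controls. The difference was -0.13 ± 0.06 log2 units (SE, adjusted p = 0.30). The proteolipid Atp6v0c, which forms the rotor ring, differed by -0.09 (adjusted p = 0.22). The catalytic subunit Atp6v1a differed by 0.07 (adjusted p = 0.55), the other subunit of the catalytic head, Atp6v1b2, by 0.02 (adjusted p = 0.77), and the accessory protein Atp6ap1 by 0.01 (adjusted p = 0.97).

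With 12 further subunits, 17 pump genes were measured. None rose in limma, and 2 fell. At an unadjusted p under 0.05 limma gave 1 higher and 4 lower, against 9.74% higher and 8.88% lower over all genes. The rank-sum test, which could call only genes whose groups did not overlap, called 0 in either direction. Atp6v1g1 and Atp6v1f, both parts of the stalks of the pump's outer sector, fell by 0.10 ± 0.02 (SE, adjusted p = 0.014) and 0.12 ± 0.03 log2 units (SE, adjusted p = 0.047). For Atp6v1g1 the signal ran from 8.27 over a median of 8.32 to 8.38 in A-CRF and from 8.37 over 8.42 to 8.46 in control, with 7 A-CRF arrays below all controls. Its call held in all 14 fits without 1 array but was lost without the 3 arrays of high GAPDH difference (-0.08, adjusted p = 0.051) and by the rank-sum test, and with quantile normalization or a variance trend. That of Atp6v1f held in 1 of the 14, the fit without A-CRF 7, and failed on leaving out any other array or the 3 arrays of high GAPDH difference (adjusted p = 0.096). Of the 17 differences 6 were positive and 11 negative, with a median of -0.02.

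**Figure D3:**
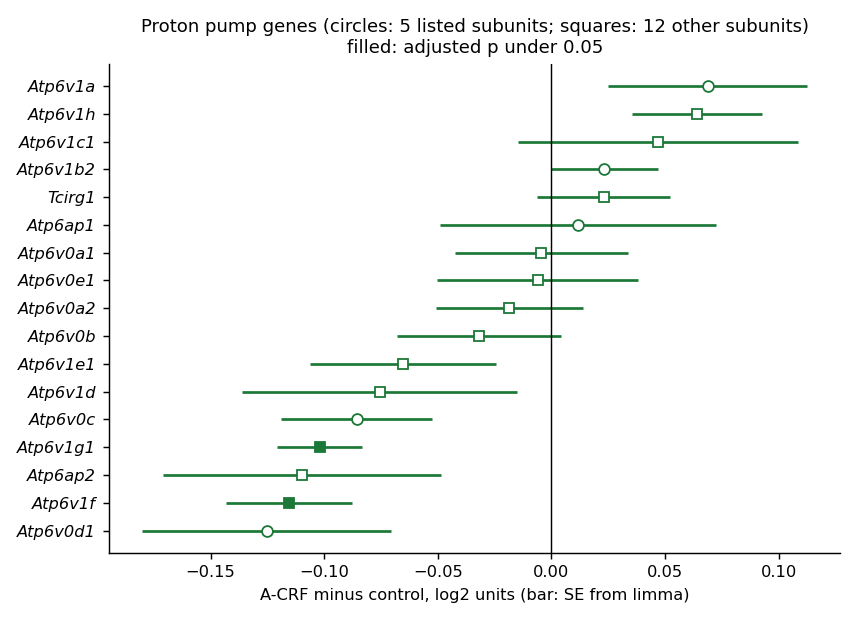
Difference between A-CRF (n = 8) and control (n = 6) in log2 units for 17 proton pump genes, with bars for the SE from limma, circles for the 5 listed subunits, squares for the 12 others and filled symbols for an adjusted p under 0.05. The values lie between -0.13 and 0.07, and the 2 filled symbols, Atp6v1g1 and Atp6v1f, are below 0.

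The A-CRF arrays did not share the differences equally. Averaged over the 24 hydrolases and cofactors, A-CRF 4 lay 0.49 and A-CRF 3 lay 0.43 log2 units above the control mean, the other 6 A-CRF arrays between 0.12 and 0.22, and the controls between -0.05 and 0.04. Of the 35 genes 17 had their highest A-CRF value on A-CRF 4 and 9 on A-CRF 3, while A-CRF 6 was the lowest for 9. The 11 membrane proteins and pump subunits showed no such order, with A-CRF arrays between -0.02 and 0.08 and controls between -0.02 and 0.03. The clock gene score used as a covariate lay between -1.94 and -0.60 on A-CRF 1 to 5, which include A-CRF 3 and 4. It lay between 1.01 and 1.61 on A-CRF 6 to 8. The controls ran from -0.92 on Control 1 to 1.19 on Control 3. The part of the clock in the differences was not tested. A-CRF 4 was among the arrays of high GAPDH difference and A-CRF 3 was not. Without the 3 such arrays 8 of the 35 genes rose, against 2.47% of all genes.

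The macrophage markers followed a similar order over the arrays. Their mean lay 0.56 above the control mean on A-CRF 3, 0.52 on A-CRF 4 and 0.46 on A-CRF 2, between 0.22 and 0.34 on the other A-CRF arrays, and between -0.10 and 0.06 on the controls. Adgre1, the macrophage surface receptor F4/80, rose by 0.53 (adjusted p = 0.0034), the complement component C1qa by 0.65 (adjusted p = 0.0039), and Cybb, a subunit of the phagocyte oxidase, by 0.68 (adjusted p = 0.0039). Fcgr1a rose by 0.22 (adjusted p = 0.0089), Ms4a7 by 0.30 (adjusted p = 0.019) and Csf1r, the receptor for macrophage colony stimulating factor, by 0.44 (adjusted p = 0.020). Ptprc, Cd163, Lyz2, Tyrobp, Fcer1g and C1qb also rose. The first 6 and Ptprc passed in all 14 fits without 1 array. Cd163, Lyz2 and Tyrobp passed in 12, Fcer1g in 8 and C1qb in 6, the losses coming with A-CRF 3, 4 or 5 or a control left out. Cd163 and C1qb also lost the threshold without the 3 arrays of high GAPDH difference (adjusted p = 0.059 and 0.057). With the clock gene covariate Cd163, Lyz2, Tyrobp, Fcer1g and C1qb lost it (adjusted p = 0.057 to 0.082). With the fat marker covariate Tyrobp, Fcer1g and C1qb did (adjusted p = 0.054 to 0.068). All 19 markers had a positive difference, with a median of 0.35, and the controls of 14 of the 19 averaged over 5.82, that is the lowest signal of the table plus 1. Among the risen markers Fcgr1a and Ms4a7 lay under that limit, with control means of 5.80 and 5.65. The array mean of the list ran from 6.85 to 7.19 in A-CRF and from 6.52 to 6.68 in control.

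Markers of other cell types were also set beside these values. Among the 7 endothelial, 7 fibroblast and 8 adipocyte markers none passed in limma, and at an unadjusted p under 0.05 there were 1, 1 and 0 higher and 0 lower. Over all genes 9.74% were higher and 8.88% lower at that limit. None of the 7 T cell, 3 B cell, 4 neutrophil and 6 mast cell markers passed, and of these only 2 T cell markers averaged over 5.82 in control. Adipocyte markers had a median difference of -0.25 with groups that overlapped, and with their mean as a covariate 4 of the 7 lysosomal genes still passed.

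**Figure D4:**
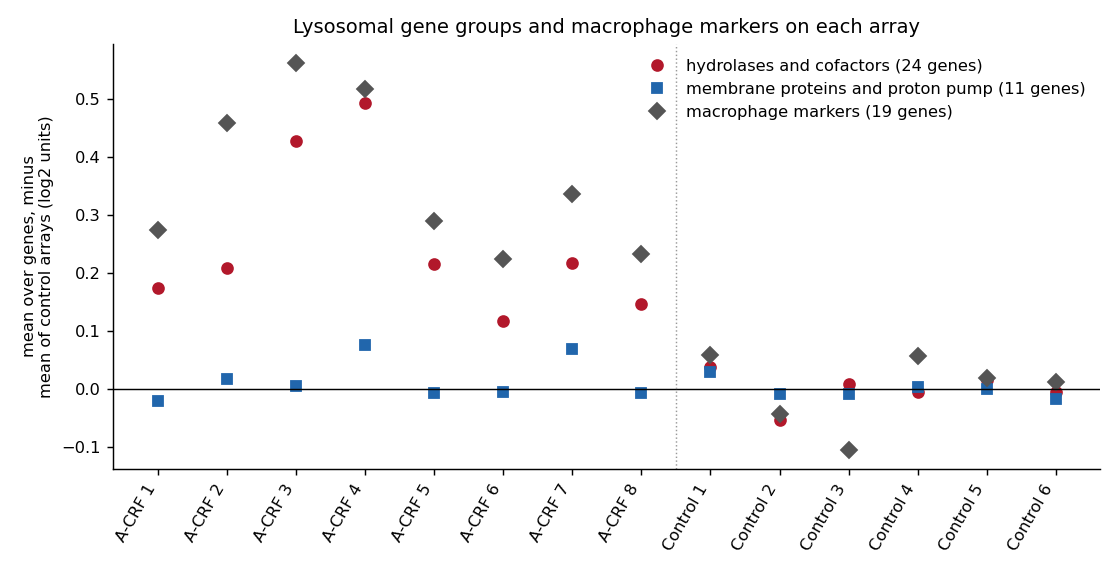
Mean over genes minus its mean on the control arrays, in log2 units, for each of the 14 arrays: 24 hydrolases and cofactors (red circles), 11 membrane proteins and proton pump subunits (blue squares) and 19 macrophage markers (grey diamonds). Circles and diamonds lie above all their control values on every A-CRF array and are highest on A-CRF 3 and A-CRF 4, while the squares lie between -0.02 and 0.08 on all arrays.

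With the macrophage marker score as a covariate in limma, none of the 35 genes and 0 of the 31042 probe sets passed, and 1558 probe sets had an unadjusted p under 0.05. The scores of the groups did not overlap, the lowest of A-CRF being -0.03 and the highest of control -0.52 (mean z score), so the score and the group can hardly be told apart and the SE grew, from a median of 0.06 to 0.10 over the 35 genes. In that fit the median difference over all genes was -0.014 with 41.2% positive, and that of the 35 genes was 0.0003 with 18 positive. At an unadjusted p under 0.05 there were 5 higher and 4 lower, against 2.89% higher and 2.99% lower over all genes. The 5 were Ctsl at 0.25, Ppt1 at 0.23, Ctss at 0.17, Asah1 at 0.23 and Lamp2 at 0.27. The 4 were Lgmn at -0.16, Smpd1 at -0.23, Laptm5 at -0.14 and Atp6v0d1 at -0.23. With their SE in that fit, Ctsl was at 0.25 ± 0.11 and Ppt1 at 0.23 ± 0.09, against 0.28 and 0.25 without the covariate. Grn went from 0.43 to -0.03 ± 0.11, Hexa from 0.47 to -0.05 ± 0.17 and Ctsb from 0.30 to 0.03 ± 0.10. None of these passed the adjusted threshold with the covariate, and the genes were not compared with each other. The part of macrophage content in the rises was not tested, since this fit can hardly tell the score and the group apart.

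**Figure D5:**
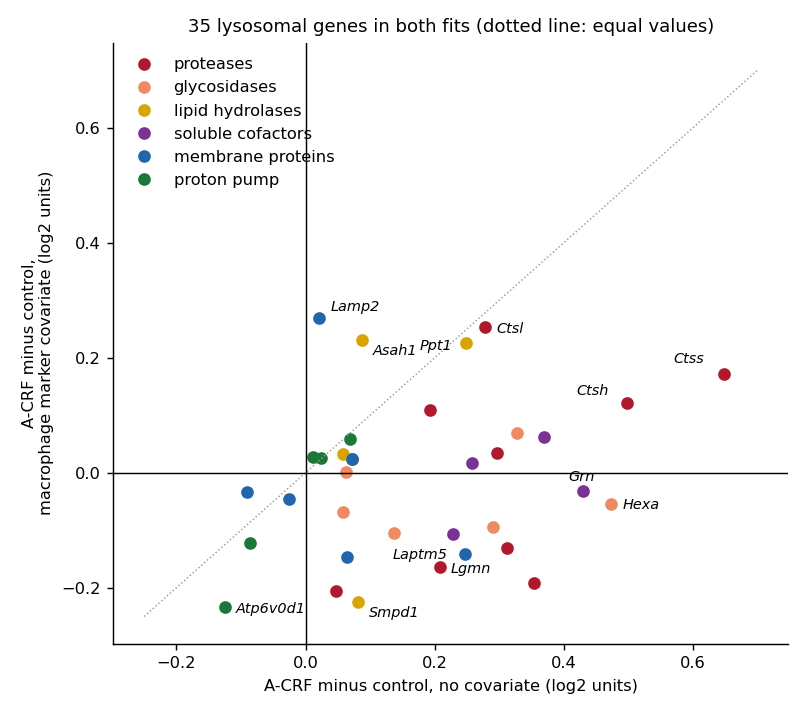
Difference between A-CRF and control in log2 units for the 35 genes, without a covariate on the x axis and with the mean z score of the macrophage markers as a covariate on the y axis, coloured by role, with a dotted line where both are equal. Ctsl and Ppt1 lie near the line, while Ctss, Ctsh, Grn and Hexa lie far below it.

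Other lysosomal genes were drawn from a list of 79 that excluded the genes above, and 68 were measured. Of these 8 rose and 2 fell, the latter being the pump subunits Atp6v1g1 and Atp6v1f, and 39 differences were positive and 29 negative, with a median of 0.04. The hydrolases among them again had mostly positive differences, 21 of 24, with 5 rises. The collagenolytic cathepsin Ctsk rose 1.96-fold (0.97 log2 units, adjusted p = 0.014), the carboxypeptidase Scpep1 by 0.55 (adjusted p = 0.0089), the ribonuclease Rnaset2 by 0.40 (adjusted p = 0.012) and Naaa, which hydrolyses fatty acid ethanolamides, by 0.23 (adjusted p = 0.014). Acp5, the tartrate-resistant acid phosphatase of osteoclasts and macrophages, rose by 0.34 (adjusted p = 0.036) with a control mean of 5.60, under that limit. Its call held in 5 of 14 fits without 1 array, those without A-CRF 1, 4, 6, 7 or 8, and was lost on leaving out any other array and with the clock gene and fat marker covariates (adjusted p = 0.092 and 0.070). The hydrolase genes Aga (0.26, adjusted p = 0.079) and Hyal2 (-0.12, adjusted p = 0.29) missed the threshold. Without the 3 arrays of high GAPDH difference both passed, at 0.26 (adjusted p = 0.029) and -0.16 (adjusted p = 0.024). Of the 21 membrane proteins Cd68, a glycoprotein of macrophage lysosomes, rose by 0.42 (adjusted p = 0.0093), and no other passed.

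Both remaining rises were in genes that act before enzymes reach the lysosome. Igf2r encodes the cation-independent mannose 6-phosphate receptor, which sorts newly made hydrolases and also takes up insulin-like growth factor II. Its signal was 8.41, 8.63 and 8.97 at the lowest, median and highest in A-CRF and 7.86, 7.95 and 8.08 in control, with no overlap. Igf2r rose by 0.70 ± 0.09 log2 units (SE, adjusted p = 0.0035), or 1.63-fold, and the cation-dependent receptor M6pr differed by -0.01 (adjusted p = 0.95). Sumf1 encodes the enzyme of the endoplasmic reticulum that activates sulfatases. Its signal was 7.73, 7.84 and 8.03 in A-CRF and 7.27, 7.49 and 7.55 in control. The groups were again apart, and the rise was 0.39 ± 0.05 (SE, adjusted p = 0.0044, 1.31-fold). Igf2r and Sumf1 passed in all 14 fits without 1 array. With the macrophage score as a covariate their differences were 0.32 and 0.42, past an unadjusted p of 0.05 but not the adjusted threshold.

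None of the 3 transcription factors passed the threshold with the model above. None passed the rank-sum test either, which could call only genes whose groups did not overlap. Tfeb differed by -0.06 (adjusted p = 0.48) and Tfe3 by 0.06 (adjusted p = 0.47). Mitf had a signal of 6.49, 6.73 and 6.998 at the lowest, median and highest in A-CRF and 6.91, 7.06 and 7.42 in control, and 7 of the 8 A-CRF arrays lay below all controls. Its difference of -0.36 ± 0.09 log2 units (SE, adjusted p = 0.058) missed the threshold. It passed without A-CRF 7 (adjusted p = 0.034) and, with all arrays, under the GAPDH covariate (adjusted p = 0.049), array weights, the filter on dim probe sets, the trend and robust options and quantile normalization, the lowest adjusted p being 0.022. These are transcript levels, and the activity of these factors, which depends on their entry into the nucleus, was not measured.

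Promoters were examined for letters that such factors are known to bind, in windows of 300 bases (250 before and 50 after the start) from RefSeq on the GRCr8 build. An entry was found for 29 of the 35 genes, and not for Ctsb, Hexa, Ppt1, Asah1, Psap and Atp6v1b2. The palindrome TCACGTGA, searched on both strands and containing the E-box CACGTG, was present for 4 of the 29 (13.8%), Atp6v0d1, Ctsd, Lamp1 and Mcoln1, against 0.777% of 33469 promoters. None of the 5 risen genes with an entry held it. Of the other lysosomal genes 8 of 56 (14.3%) held it, among them the risen Igf2r and Sumf1. The following windows of 250 bases before the start are shown because they hold the palindrome, in capitals, in genes that did not pass the threshold (Lamp1 and Ctsd) and in genes that rose (Igf2r and Sumf1).
Lamp1, chr16:83075064-83075313, minus strand: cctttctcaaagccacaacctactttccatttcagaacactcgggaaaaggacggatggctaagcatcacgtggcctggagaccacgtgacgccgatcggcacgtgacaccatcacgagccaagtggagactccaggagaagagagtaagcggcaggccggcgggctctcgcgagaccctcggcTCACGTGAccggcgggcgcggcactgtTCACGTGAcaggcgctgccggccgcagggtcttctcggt
Ctsd, chr1:206968822-206969071, minus strand: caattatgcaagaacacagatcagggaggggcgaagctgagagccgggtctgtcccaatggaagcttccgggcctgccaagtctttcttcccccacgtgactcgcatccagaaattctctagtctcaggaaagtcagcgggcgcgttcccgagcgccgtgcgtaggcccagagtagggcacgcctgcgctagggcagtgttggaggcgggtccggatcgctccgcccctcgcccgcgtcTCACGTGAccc
Igf2r, chr1:50526628-50526877, plus strand: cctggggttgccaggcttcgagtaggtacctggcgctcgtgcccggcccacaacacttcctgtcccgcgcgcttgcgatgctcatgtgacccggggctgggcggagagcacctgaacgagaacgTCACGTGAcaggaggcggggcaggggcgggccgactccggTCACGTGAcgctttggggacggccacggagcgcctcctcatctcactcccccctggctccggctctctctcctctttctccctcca
Sumf1, chr4:142716713-142716962, minus strand: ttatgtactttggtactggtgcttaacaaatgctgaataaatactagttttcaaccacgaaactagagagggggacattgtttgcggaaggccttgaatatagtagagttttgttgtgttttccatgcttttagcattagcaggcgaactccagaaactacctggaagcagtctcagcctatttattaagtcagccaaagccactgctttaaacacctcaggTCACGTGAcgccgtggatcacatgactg

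In these windows the first base of the palindrome lay 66 and 39 bases before the start in Lamp1, 11 in Ctsd, 126 and 86 in Igf2r and 28 in Sumf1. The letters GTCACGTG, which share the E-box with the palindrome, were found for 6 of the 29 genes (20.7%) against 1.85% of all promoters. The E-box CACGTG, which lies inside both, was found for 7 (24.1%) against 6.42%. Genes that hold the palindrome thus had differences from -0.13 (Atp6v0d1) to 0.70 (Igf2r). A match describes the letters only.

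The letters GAGGAAGT, a form of the element bound by the myeloid factor PU.1, were searched in the same windows on both strands. They were present for Ctsc, Ctss and Gla (10.3% of 29) against 2.42% of all promoters, and the shorter GAGGAA, which lies inside them, for 16 (55.2%) against 27.6%. Of the 56 other lysosomal genes with an entry 1 held GAGGAAGT (1.79%) and 12 held GAGGAA (21.4%). The letters CCAAT were present for 13 of the 29 (44.8%) against 37.5% of all promoters. They were held by 4 of the 5 risen genes (80%) and 9 of the 24 others (37.5%). Of the other lysosomal genes 28 of 56 (50%) held them, and 4 of the 9 past the threshold (44.4%). These shares were not tested. Of the 3 listed genes that hold GAGGAAGT only Ctss rose, while Ctsc and Gla differed by 0.07 and 0.06 (adjusted p = 0.66 and 0.46). Of the listed genes with an entry, 3 of the 5 risen (60%) and 13 of the 24 others (54.2%) held GAGGAA. The window of Ctss, which had the largest difference of the 35 genes, is shown with the reverse complement of GAGGAAGT in capitals, whose first base lies 17 before the start.
Ctss, chr2:185775146-185775395, plus strand: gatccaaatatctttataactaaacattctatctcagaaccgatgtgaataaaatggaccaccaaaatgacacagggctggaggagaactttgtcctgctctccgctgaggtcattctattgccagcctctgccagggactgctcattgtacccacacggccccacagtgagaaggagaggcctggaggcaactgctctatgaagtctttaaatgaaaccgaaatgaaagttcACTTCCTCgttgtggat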

How the data were processed

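Signals of 14 Affymetrix arrays of rat thoracic aorta were used as deposited by the authors, as log2 values of 1 summary per probe set. Per the submitters' processing notes the summaries came from PLIER, while its version, background correction and normalization are not given by those sources. Per the labels' protocols the RNA was primed with oligo-dT, so probe sets read the 3′ end of transcripts. The base of the log is an inference from their range, and an offset added before deposit would shrink differences of dim genes. Arrays have no sequencing depth, and their number limits the precision.

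After 57 control probe sets were left out, 31042 were tested with limma 3.58.1 (R 4.3.3), lmFit and eBayes, two-sided, with group as the only factor, 12 residual degrees of freedom, Benjamini-Hochberg adjustment over all of them and a threshold of 0.05. The fit was tested on simulated data. A single symbol was annotated to 20826 probe sets, more than 1 to 436 and no symbol to 9780, and genes were named only from single symbols. Groups were taken from the treatment label, and 0 columns of values were left unused.

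All listed genes are named. Values over arrays are given for each gene past the threshold and for the largest absolute difference of each of the 6 classes, of other lysosomal genes those past the threshold are named, and of macrophage markers those past the threshold are named with values for 6. Values of M6pr, Aga and Hyal2, and the second probe sets, were added after their values were seen. The genes, the other lists and the rules were chosen with earlier results of these data known. Older spellings of a symbol were counted once. Promoter sequences are from RefSeq (GRCr8).

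The 14 alternatives changed the scale (16 added before taking log2, quantiles made equal, arrays centred on the median), the probe sets (the dimmest 40% dropped, those that match several transcripts dropped, all of a gene averaged) or the model (trend and robust options, array weights, a rank-sum test computed exactly). Others added a covariate for macrophage markers, fat markers, clock genes or the GAPDH difference, or dropped the 3 arrays of high GAPDH difference. Each array was also left out in turn.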

Additional observations from a re-analysis of the deposited data

Results flagged for a closer look

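Each group of 6 or 8 arrays was searched for a single array far from the others, for each of the 35 genes, by the gap to the nearest array over the range of the group (the critical value of Dixon's test). Chance flags about 1 in 20 groups, and 6 of the 70 groups were found. On Control 1 Gaa had a signal of 6.71 against 6.37 to 6.44 on the other controls, and Atp6v0c one of 8.38 against 8.18 to 8.25. Control 1 is an array of high GAPDH 3′ minus 5′ difference, as are A-CRF 1 and A-CRF 4. Lamp2 was low on A-CRF 4, at 9.07 against 9.44 to 9.60, and Cd63 was low on A-CRF 1, at 9.91 against 10.17 to 10.35. The part of RNA length in these 4 values was not tested. Grn was high on Control 5, at 8.87 against 8.74 to 8.77, and Laptm5 was low on Control 3, at 6.17 against 6.30 to 6.36.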

How the results depend on the processing

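Of 980 recomputed differences of single genes, 903 kept their direction and their side of the threshold, 44 lost the threshold, 12 gained it and 21 changed sign. With the macrophage covariate the sign changed for Ctsa (-0.19), Ctsd (-0.21), Ctsz (-0.13), Lgmn (-0.16), Glb1 (-0.095), Gaa (-0.10), Gusb (-0.068), Hexa (-0.054), Smpd1 (-0.23), Psap (-0.11), Grn (-0.032), Cd63 (-0.15) and Laptm5 (-0.14), and Grn was the only one of these past the threshold without it. With the clock covariate Ctsd (-0.035), Scarb2 (0.00097) and Atp6ap1 (-0.0041) changed sign. Leaving out 1 array gave -0.022 to 0.11 for Ctsd, -0.041 to 0.0070 for Scarb2 and -0.020 to 0.045 for Atp6ap1. Risen genes of the 35 numbered 3 with the clock, 4 with the fat and 0 with the macrophage covariate, 3 to 8 without 1 array and 6 to 10 otherwise, against 7. Only 3 without A-CRF 5 or Control 2 and 4 without A-CRF 3 or Control 1, 4, 5 or 6 passed. Of other lysosomal genes 0 passed with the macrophage covariate, 8 to 13 without 1 array and 7 to 14 otherwise, against 10. Over all probe sets 636 passed, 1041 with the GAPDH covariate, 1457 with array weights, 323 with the clock, 382 with the fat and 0 with the macrophage covariate, and 307 (without Control 5) to 979 (without A-CRF 1) without 1 array. The cause was not tested. No paired analysis was possible because the labels give the groups no shared replicate numbers. Precision is limited by 8 and 6 arrays.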
